A study of Mus musculus with 4 samples.

Results

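The 10 genes described here, Tcstv1, Tcstv3, Tdpoz1, Tdpoz3, Tdpoz4, Zfp352, Usp17lc, Usp17le, Gm5662 and Gm2022, are expressed at the 2-cell stage of the mouse embryo and lie outside the Zscan4 and Pramel families. They were taken by name from the gene count table, where all 10 were found among 24116 genes. RNA-seq libraries of poly(A) RNA from mouse embryonic stem cells (ESCs), cultured on feeder cells with LIF, were compared between G3 Terc-/- ESCs and wild-type (WT) ESCs, with 2 libraries of each. Terc is the RNA component of telomerase, and G3 denotes the third generation without it, so that the telomeres of these cells were shortened. Both genotypes were of the C57BL/6 strain, and the G3 Terc-/- cells were derived from blastocysts of intercrossed G2 Terc-/- mice. Each genotype was represented by 1 ESC line, N12 for WT and F35 for Terc-/-, so that genotype and line cannot be told apart.

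When the mouse zygote first divides, a group of genes is switched on briefly together with MERVL, an endogenous retrovirus, and is then silenced. In ESC cultures a small and changing fraction of cells returns to this program for a time, and these are called 2-cell-like cells. Many of the genes belong to rodent families of near-identical copies in clusters. Tcstv1 and Tcstv3 are members of the 2-cell-stage variable group and have been linked to telomere length in ESCs. The Tdpoz genes encode proteins with a TRAF-like domain and a POZ domain, as found in adaptors of ubiquitin ligases. Zfp352 encodes a zinc finger protein, Usp17lc and Usp17le encode deubiquitinating enzymes, and Gm5662 and Gm2022 are copies related to Eif1a, which encodes a translation initiation factor. In bulk RNA, a larger share of cells in this state and more RNA in each such cell cannot be told apart.

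How far a read can be placed on a single gene depends on how alike the copies are, so coding stretches of paired genes are shown, from GENCODE M21 transcripts of GRCm38, the build also named mm10. In each pair, capitals mark the bases that differ between both sequences. The first 150 coding bases of Tcstv1 and Tcstv3 differed at 5 positions.
Tcstv1: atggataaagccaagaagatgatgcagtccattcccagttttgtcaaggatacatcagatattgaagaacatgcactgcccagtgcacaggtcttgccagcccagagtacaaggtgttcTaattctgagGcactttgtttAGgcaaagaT
Tcstv3: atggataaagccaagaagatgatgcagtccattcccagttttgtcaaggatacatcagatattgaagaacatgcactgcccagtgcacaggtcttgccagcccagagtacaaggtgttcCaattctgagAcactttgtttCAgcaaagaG
The first 150 coding bases of Gm5662 and Gm2022 differed at 2 positions.
Gm5662: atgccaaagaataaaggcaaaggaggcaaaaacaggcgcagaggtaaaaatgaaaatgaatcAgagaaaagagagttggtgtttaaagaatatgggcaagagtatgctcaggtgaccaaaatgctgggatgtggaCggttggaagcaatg
Gm2022: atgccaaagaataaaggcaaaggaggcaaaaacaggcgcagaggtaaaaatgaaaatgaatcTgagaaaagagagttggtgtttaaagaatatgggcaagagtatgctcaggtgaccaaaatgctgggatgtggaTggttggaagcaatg
Usp17lc, from coding base 15 to 164, and Usp17le, from coding base 117 to 266, differed at 13 positions of their first gap-free stretch.
Usp17lc: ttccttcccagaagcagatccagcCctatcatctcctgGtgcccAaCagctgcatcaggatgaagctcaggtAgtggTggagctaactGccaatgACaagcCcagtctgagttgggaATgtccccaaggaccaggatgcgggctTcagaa
Usp17le: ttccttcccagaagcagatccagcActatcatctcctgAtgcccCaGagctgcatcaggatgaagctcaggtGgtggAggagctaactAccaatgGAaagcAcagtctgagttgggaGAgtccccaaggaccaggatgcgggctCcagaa
The first 150 coding bases of Tdpoz3 and Tdpoz4 differed at 35 positions, the most of the 4 pairs.
Tdpoz3: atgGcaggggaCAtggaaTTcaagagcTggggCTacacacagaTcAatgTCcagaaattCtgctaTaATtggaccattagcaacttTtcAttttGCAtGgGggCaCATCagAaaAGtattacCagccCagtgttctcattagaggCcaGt
Tdpoz4: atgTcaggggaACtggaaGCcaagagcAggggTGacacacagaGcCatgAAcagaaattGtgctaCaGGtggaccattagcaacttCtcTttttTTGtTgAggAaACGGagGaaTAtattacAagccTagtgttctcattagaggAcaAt

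Over the aligned coding sequences, identity was 98.4% for Gm5662 and Gm2022, 93.6% for Tcstv1 and Tcstv3, 82.3% for Usp17lc and Usp17le, 88.5% for Tdpoz1 and Tdpoz3 and 77.6% for Tdpoz3 and Tdpoz4. By the same measure, Gm5662 and Eif1a itself were 53.4% identical, over 762 aligned positions, the length of the Eif1a coding sequence used. Of the 432 coding bases of Gm5662, 407 were aligned to the same base in it. A read end of the sequenced length was 150 bases, and the longest transcript of each gene was therefore cut into all its windows of 150 bases. These were sought in all transcripts of other genes. No window of Tcstv1, Tcstv3 or Zfp352 was found unchanged in a transcript of another gene. The share of such windows was 40.3% in Gm5662, 33.4% in Tdpoz3, 29.4% in Usp17lc, 19.9% in Gm2022, 12.4% in Tdpoz1, 6.54% in Tdpoz4 and 0.807% in Usp17le. Counts of the genes with shared windows are uncertain, because how reads with several matches were counted is not given in the sources used here.

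**Figure D1:**
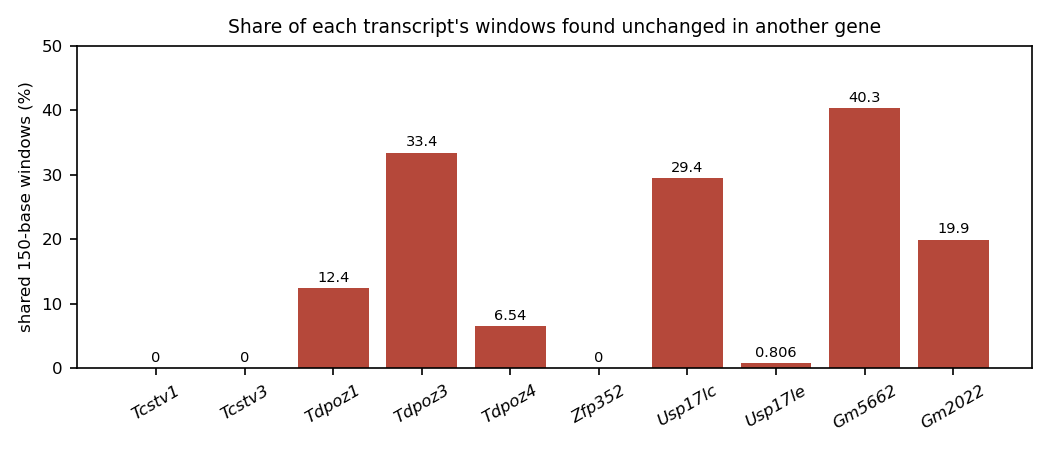
Bars give, for each of the 10 genes on the horizontal axis, the percentage of the 150-base windows of its longest GENCODE M21 transcript that occur unchanged in a transcript of another gene. Tcstv1, Tcstv3 and Zfp352 have none, and Gm5662 has the highest share, 40.3%.

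Gene counts summed to between 18047995 and 22520017 per library. For Terc, 7 and 2 counts were found in WT libraries, whereas both G3 Terc-/- libraries had 0, a number compatible with up to 3. The summed CPM, counts scaled to library size, of 10 pluripotency genes were 6187 and 6285 in WT libraries and 7661 and 7957 in G3 Terc-/- libraries, and none of these genes was at 0. Of the 10, only Nanog passed the cutoffs given below, at a log2 fold change of 1.13. Dppa5a and Utf1 were lower in G3 Terc-/- ESCs, at -0.79 and -0.32, and the other genes of the list had positive log2 fold changes. The 12 feeder fibroblast genes summed to 287 and 180 CPM in WT and to 314 and 206 CPM in G3 Terc-/- libraries, so that the genotypes overlapped, replicate 1 was the higher one in both and 1 of 11 tested genes, Dcn, was higher. The trophoblast list (6 genes, including Cdx2 and Elf5) had 239 and 235 CPM in WT and 177 and 173 CPM in G3 Terc-/- libraries, with 2 genes lower and 1, Eomes, higher. The primitive endoderm list (6 genes) had 30.04 and 28.3 CPM in WT and 17.99 and 13.3 CPM in G3 Terc-/- libraries, with 2 genes lower. The neural list (4 genes) had 96.7 and 98.2 CPM in WT and 121 and 123 CPM in G3 Terc-/- libraries, with none past the cutoffs, and the mesoderm list (4 genes) had 13.5 and 13.7 against 35.8 and 34.5 CPM, with 1 gene, again Eomes, past them. The part of these differences in the results below was not tested.

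The summed level of the 2-cell-stage genes was higher in G3 Terc-/- ESCs. Summed over the 10 genes, the WT libraries held 58 and 70 counts and those of G3 Terc-/- ESCs 577 and 542, or 2.66 and 3.16 against 26.0 and 29.7 TMM-normalized CPM. For each of the 10 genes, both G3 Terc-/- libraries lay above both WT libraries in CPM, which held for 31.5% of the 19448 genes with a count. A gene was called changed at the cutoffs of the study, a fold change over 2 and a p under 0.05, here by the quasi-likelihood test of edgeR, and p-values were adjusted by the Benjamini-Hochberg method over all 14896 genes tested. Of the 10 genes 7 were tested, and 7 were higher and 0 lower, also by adjusted p. Over all genes tested, 4.73% were higher and 3.13% lower, and 4.43% were higher by adjusted p. The median log2 fold change was 3.60 for these 7 genes and 0.00625 over all genes. Counts and medians over the tested genes are a description only, since Tcstv1, Tcstv3, Zfp352 and Gm2022 reached the minimum level of the filter in G3 Terc-/- libraries alone. Usp17lc reached it in 1 WT library and Usp17le and Gm5662 in both, and Tdpoz1, Tdpoz3 and Tdpoz4 were not tested. An exact permutation test (two-sided) of a single gene cannot give a p below 0.333 with 2 libraries per group.

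**Figure D2:**
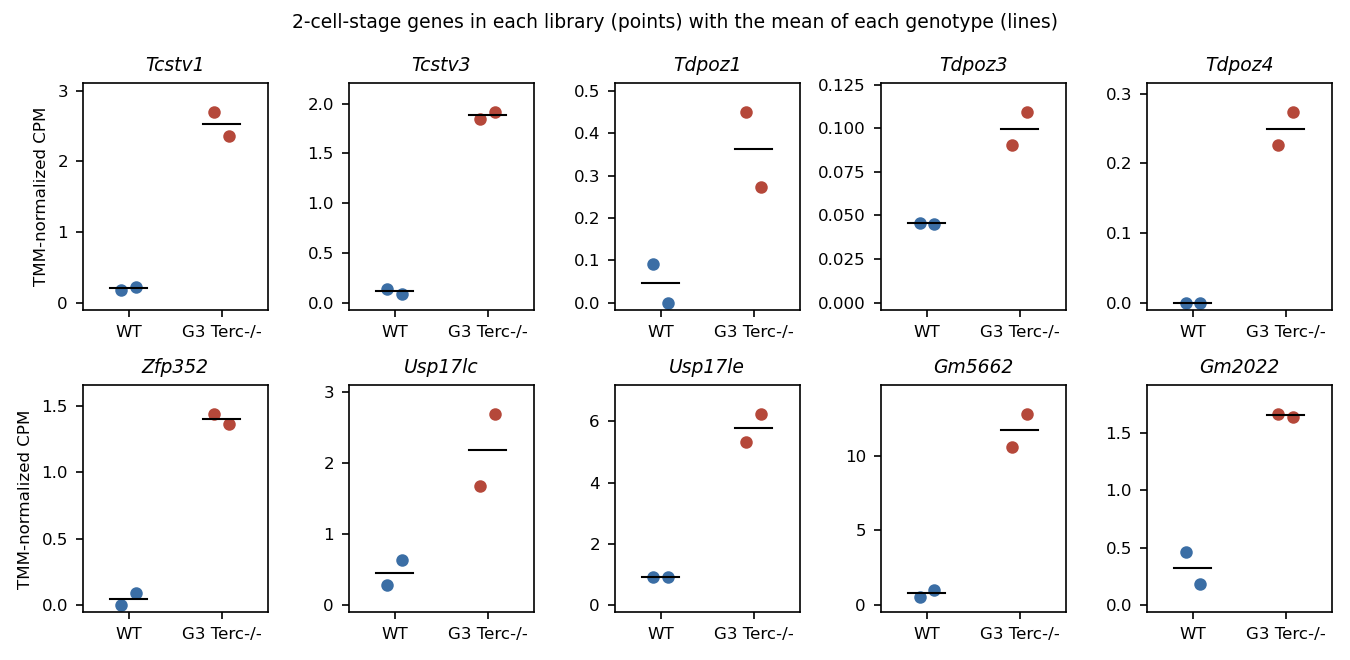
Each panel gives 1 gene in TMM-normalized CPM on a linear axis of its own, with a point for each library and a line at the mean of the 2 libraries of a genotype. In all 10 panels both G3 Terc-/- points lie above both WT points, and Gm5662 reaches the highest level, 10.6 and 12.8 CPM.

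Tcstv1 (gene identifier 54382) and Tcstv3 (236219), the variable-group genes, lie on chromosome 13 of GRCm38, at chr13:119893387-119894785 and chr13:120316862-120318261. Tcstv1 had 4 and 5 counts in WT against 60 and 43 counts in G3 Terc-/- libraries. Its level was 0.204 ± 0.0299 CPM in WT and 2.53 ± 0.247 CPM in G3 Terc-/- ESCs (SD, n = 2). The log2 fold change was 3.60 (SE 0.42, edgeR adjusted p = 2.06e-09). Tcstv3 had 3 and 2 counts in WT against 41 and 35 in G3 Terc-/- libraries, or 0.114 ± 0.0334 and 1.88 ± 0.0491 CPM (SD, n = 2). Its log2 fold change was 3.98 (SE 0.51, edgeR adjusted p = 1.91e-08). Both genes were therefore nearly silent in WT ESCs, and the libraries of the genotypes did not overlap. Neither gene shared a 150-base window with another gene, and the ratios of the summed counts, 12.5 (exact 95% interval 6.31 to 28.0) for Tcstv1 and 16.5 (6.79 to 52.4) for Tcstv3, had intervals that overlapped. These intervals cover counting error only. The sum of both genes rose from 0.318 to 4.41 CPM, at a log2 fold change of 3.77 (SE 0.33, edgeR adjusted p = 1.20e-12).

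Among the POZ-domain genes of chromosome 3, none of Tdpoz1, Tdpoz3 and Tdpoz4 passed the filter. Tdpoz1 (207213, chr3:93669333-93676283) had 2 and 0 counts in WT against 10 and 5 in G3 Terc-/- libraries, a ratio of 8.17 (1.90 to 73.6). Tdpoz4 (399675, chr3:93796398-93797510) had no count in either WT library and 5 in each G3 Terc-/- library, and was at least 3.63-fold higher, taking 3 counts over the WT group as the floor and leaving aside the counting error of the G3 Terc-/- counts. With that error, the lower limit of its exact 95% interval was 2.44. Tdpoz3 (399674, chr3:93826020-93827117) had 1 count in each WT library and 2 in each G3 Terc-/- library, and its ratio of 2.18 had an interval from 0.312 to 24.1, so that a difference was not detectable at this depth. Without a filter, edgeR's adjusted p was 0.0365 for Tdpoz1, 0.0237 for Tdpoz4 and 0.679 for Tdpoz3. Their paralog Tdpoz8 had 5 and 2 counts in WT against 42 and 40 in G3 Terc-/- libraries, and rose at a log2 fold change of 3.63 (SE 0.48, edgeR adjusted p = 3.15e-08). No window of its longest transcript was shared with another gene, but windows of Tdpoz4 were found in another Tdpoz8 transcript. Tdpoz2 had 0 and 1 against 10 and 7 counts, Tdpoz9 had 0 and 0 against 0 and 2, and Tdpoz5 and Tdpoz7 had no count in any library, and 100% of the windows of both were shared with other genes. The sum of the 8 Tdpoz genes was higher at 3.53 on the log2 scale (SE 0.38, edgeR adjusted p = 1.97e-10), and Tdpoz8 held 63.1% of its G3 Terc-/- counts. For the 3 listed genes alone the sum gave 2.90 (adjusted p = 0.000594).

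Zfp352 (236537, chr4:90218820-90225687) showed the highest fitted fold change of the 7 listed genes tested, except without WT replicate 1, where Tcstv3 was higher, at a log2 fold change of 4.29. It had 0 and 2 counts in WT against 32 and 25 counts in G3 Terc-/- libraries, or 0.0451 ± 0.0638 and 1.41 ± 0.0515 CPM (SD, n = 2). The log2 fold change was 4.78 (SE 0.67, edgeR adjusted p = 1.40e-07), and the ratio of the summed counts was 31.0 (8.21 to 262). The size of this change rests on 2 WT counts: without WT replicate 1 it was 3.88, and without WT replicate 2 the WT level was 0 and the fitted value of 7.88 depends on the prior count. Zfp352 is a gene of 2 exons with no window shared with another gene.

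The deubiquitinase genes lie with the other Usp17l genes on chromosome 7. Usp17le (625530, chr7:104767961-104777470) had 20 counts in each WT library and 118 and 114 in the G3 Terc-/- libraries. It rose from 0.909 ± 0.00979 to 5.78 ± 0.656 CPM (SD, n = 2), at a log2 fold change of 2.66 (SE 0.25, edgeR adjusted p = 6.18e-12). Usp17lc (13532, chr7:103416696-103419174) had 6 and 14 counts in WT against 37 and 49 in G3 Terc-/- libraries, or 0.453 ± 0.252 and 2.18 ± 0.719 CPM (SD, n = 2). Its log2 fold change was 2.23 (SE 0.39, edgeR adjusted p = 1.05e-05), the smallest of the 7 listed genes tested. Without WT replicate 2 it was 2.94, and Gm2022 was then the smallest, at 1.84. Gm2022 was also the smallest without G3 Terc-/- replicate 1, at 2.35 against 2.55 for Usp17lc. The coding sequence of Usp17lc was 98.4% identical to that of Usp17ld, so that their counts are best read together. Usp17la (4 and 3 against 46 and 32 counts), Usp17lb (1 and 6 against 29 and 19) and Usp17ld (2 and 3 against 13 and 20) were higher as well, at log2 fold changes of 3.55, 2.85 and 2.79. The sum of the 5 genes rose from 1.79 to 11.9 CPM, a log2 fold change of 2.72 (SE 0.18, edgeR adjusted p = 3.62e-16), and Usp17le held 48.6% of its G3 Terc-/- counts.

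Gm5662 (435337, chr12:88270635-88274497), the Eif1a-related gene with the most counts, had 12 and 22 counts in WT against 235 and 234 in G3 Terc-/- libraries. It rose from 0.771 ± 0.313 to 11.7 ± 1.58 CPM (SD, n = 2), at a log2 fold change of 3.91 (SE 0.22, edgeR adjusted p = 1.76e-18), the smallest p of the 7 tested. Gm2022 (100039052, chr12:87892834-87896722) had 10 and 4 counts in WT against 37 and 30 in G3 Terc-/- libraries, or 0.319 ± 0.196 and 1.66 ± 0.0171 CPM (SD, n = 2). Its log2 fold change was 2.36 (SE 0.44, edgeR adjusted p = 2.05e-05), and was 3.16 without WT replicate 1, the library with the higher WT count. The ratio of Gm5662, 15.0 (10.6 to 21.9), had an interval above that of Gm2022, 5.21 (2.90 to 10.04). This difference between 2 genes that share windows with common paralogs was not tested. Of the paralogs, Gm2016 had 2 and 6 counts in WT against 82 and 75 in G3 Terc-/- libraries and had the highest log2 fold change, 4.38 (SE 0.40). Gm5039 (13 and 10 against 138 and 127 counts), Gm8300 (5 and 9 against 69 and 51) and BB287469 (1 and 4 against 35 and 32) were higher at 3.64, 3.20 and 3.80, although 88.1% of the windows of BB287469 were shared with other genes. The sum of the 6 genes does not depend on how reads were divided among them, but some windows are shared with genes outside the sum, such as Gm2035 and Gm4027. It rose from 2.22 ± 0.362 to 28.5 ± 2.27 CPM (SD, n = 2), at 3.67 on the log2 scale (SE 0.14, edgeR adjusted p = 1.82e-24). Gm5662 held 41.0% of its G3 Terc-/- counts.

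Of the 12 genes of the paralog list found in the table, 8 were tested and 8 were higher, also by adjusted p, beside the 4.73% of all genes given above, and 7 of the 8 reached the minimum of the filter in no WT library. Gm20767, Gm21761 and Gm21319, which are paralogs by their coding sequence, stood on the list of other 2-cell-stage genes and are described there and with chromosome 13. The genes of the paralog list without a call were Tdpoz2, Tdpoz5, Tdpoz7 and Tdpoz9, none of which was tested.

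**Figure D3:**
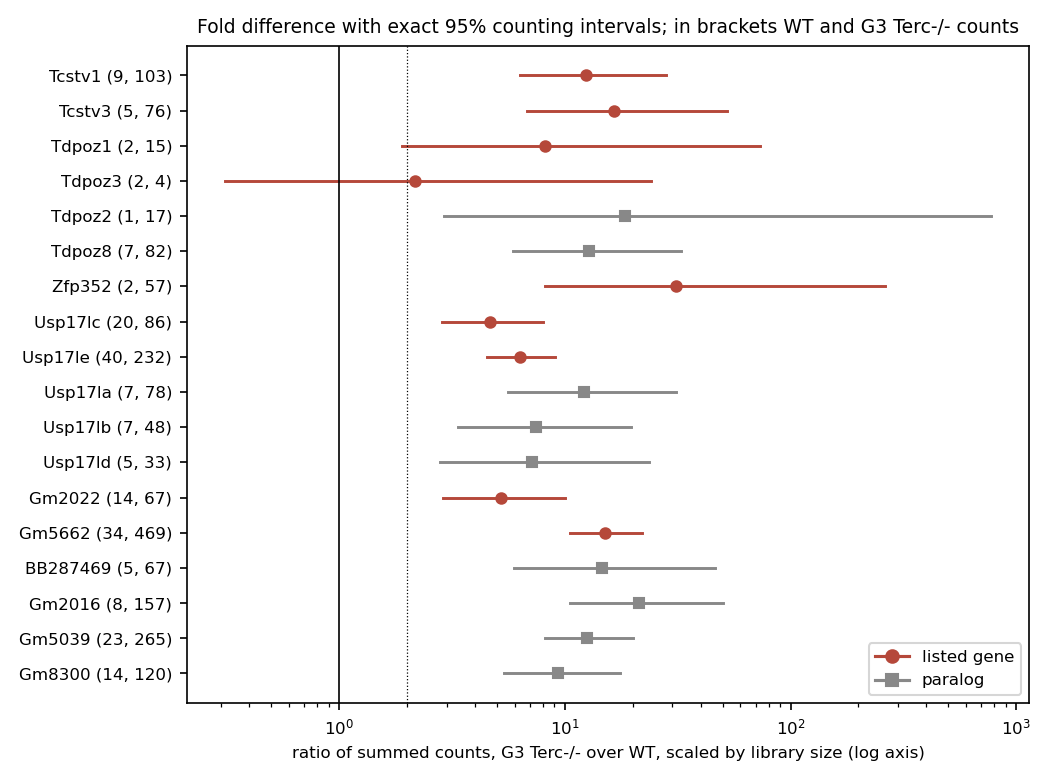
Points give the ratio of the summed counts of the 2 G3 Terc-/- libraries over the 2 WT libraries, scaled by library size, on a log axis, and lines give exact 95% counting intervals, for listed genes (circles) and paralogs (squares) with at least 1 WT count. The solid vertical line is a ratio of 1 and the dotted line a ratio of 2, and the interval of Tdpoz3 is the one that includes 1.

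Levels were compared between genes only per kb of GENCODE exon. In G3 Terc-/- ESCs the order, in CPM per kb, was Gm5662 at 6.36, Gm2022 at 3.81, Usp17le at 2.91, Tcstv3 at 2.42, Tcstv1 at 1.81, Usp17lc at 0.888, Zfp352 at 0.618, Tdpoz4 at 0.224, Tdpoz1 at 0.154 and Tdpoz3 at 0.0910. No neighbours in this order overlapped between their 2 libraries, although the Tdpoz levels rest on 4 to 15 counts. In WT ESCs the order was Gm2022 at 0.734, Usp17le at 0.457, Gm5662 at 0.419, Usp17lc at 0.185, Tcstv1 and Tcstv3 at 0.146, Tdpoz3 at 0.0414, Zfp352 at 0.0198, Tdpoz1 at 0.0195 and Tdpoz4 at 0. The libraries overlapped between Gm2022 and Usp17le, between Usp17le and Gm5662, between Usp17lc and Tcstv1, between Tcstv1 and Tcstv3, between Zfp352 and Tdpoz1 and between Tdpoz1 and Tdpoz4. The gene model of Gm2022 holds 435 bases, the coding part alone, against 1840 bases for Gm5662, so that their levels per kb are not on equal terms. Likewise, the models of Tdpoz3 (1098 bases) and Tdpoz4 (1113 bases) hold little beyond the coding part, against 2353 bases for Tdpoz1. That of Tcstv3 holds 779 bases against 1398 for Tcstv1. Before division by length, Tdpoz1 (0.362 CPM) lay above Tdpoz4 (0.250) in G3 Terc-/- ESCs, and Tcstv1 (2.53) above Tcstv3 (1.88). The order within these pairs thus depends on the gene models.

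Since the study addressed telomeres, the position of the genes was examined. Tcstv3 was the last annotated gene of chromosome 13 in the RefSeq table of GRCm38.p6, and Tcstv1 lay 423 kb before it. The other 8 genes lay between 31.7 and 66.3 Mb from the last annotated gene of their chromosome. Beyond Zfp131, towards the end of chromosome 13, 9 genes had counts, 6 were tested and 6 were higher, Tcstv1 and Tcstv3 among them, beside 4.73% of all genes. The count is a description only, since 5 of the 6 reached the minimum of the filter in no WT library. The genes not tested were AF067063 (0 and 2 counts in WT, 9 and 2 in G3 Terc-/-), AF067061 (3 and 0, 12 and 7) and Gm21188 (3 and 0, 1 and 0), the last with fewer counts in G3 Terc-/- libraries. The other genes called were Gm21761 (1 and 3 against 21 and 20 counts, log2 fold change 3.40) and Gm20767 (18 and 6 against 139 and 107, 3.46), whose coding sequences were 95.5% and 93.6% identical to that of Tcstv1, and B020031M17Rik (2 and 1 against 60 and 59, 5.32) and BC147527 (3 and 2 against 28 and 28, 3.55). Gm21761 and Gm20767 shared 348 windows with each other and none with Tcstv1 or Tcstv3. From Zfp131 back to the start of the last 1 Mb, 9 genes were tested and 1 was higher, 3110070M22Rik, at a log2 fold change of 1.21 with an edgeR adjusted p of 0.0760. Zfp131 itself, the nearest of them, had a log2 fold change of 0.54, under the fold cutoff (edgeR adjusted p = 8.85e-10). B020031M17Rik, BC147527, 3110070M22Rik and the genes not tested were singled out after their values were seen.

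**Figure D4:**
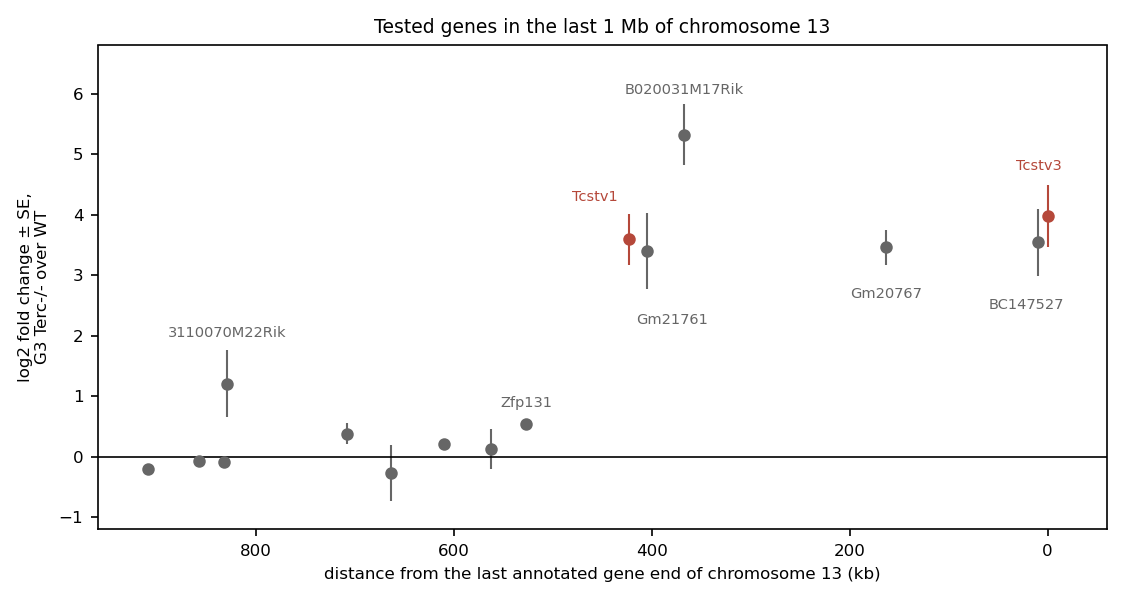
The log2 fold change of G3 Terc-/- over WT ESCs, with its SE as a line, is plotted for the tested genes in the last 1 Mb of chromosome 13 against the distance in kb from the last annotated gene end, which is at the right. The 6 genes beyond Zfp131, with Tcstv1 and Tcstv3 in red, lie between 3.40 and 5.32, and the 9 others between -0.27 and 1.21.

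Across all chromosomes, 15 of 187 tested genes within 1 Mb of the last annotated gene end were higher, 8.02%, and 11 of 183, 6.01%, were higher when the 2-cell-stage lists were left out, beside 4.70% of the 14869 tested genes with a position. The 11 still included B020031M17Rik and BC147527, which lie between Tcstv1 and Tcstv3 but stood on none of the lists. No test was made of these shares. Around the 10 genes, the nearest genes on either side that stood on none of the lists and had a mean of at least 50 counts were 11 in number. Of these, 0 passed the cutoffs in either direction, beside 4.73% of all genes tested higher and 3.13% lower. The log2 fold changes of the 11 ran from -0.51 to 0.66. Their gaps to the listed genes ran from 86.0 kb, between Gm5662 and Adck1, to 986 kb, between Zfp352 and Elavl2. The shares over all genes tested were taken without the minimum of 50 counts. Left out by this choice were Gm20767 and Gm21761, by their list, and B020031M17Rik and BC147527, by their counts, all called higher between Tcstv1 and Tcstv3. Paralogs called higher, such as Gm2016, Gm5039 and Usp17lb, were left out by their list as well. They lay nearer to listed genes than the neighbours used. The 0 therefore covers only genes outside the lists at this level of counts. The 2 genes flanking the Tdpoz cluster, S100a10 and Them4, were at 0.64 and 0.66, both under the fold cutoff with adjusted p-values of 1.23e-10 and 0.000166 (edgeR).

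RefSeq promoter windows, from 250 bases before to 50 after the gene start, were at hand for 4 of the 10 genes, Tdpoz1, Tdpoz4, Zfp352 and Usp17lc. The TATA box (TATAAA), the box spelled CCAAT and the core of bicoid-type homeobox proteins (TAATCC) were searched on both strands, and were chosen after the windows had been read. They occurred in 13.6%, 37.4% and 7.06% of all 32851 promoter windows. The window of Zfp352, chr4:90218570-90218869 of GRCm38.p6 on the plus strand, is shown because its 9 TAATCC copies, in capitals, were matched or exceeded in no other window, 1 of the 32851 being its own. The 9 copies lie at distinct positions but belong to a short stretch repeated in tandem, so that they are not 9 independent occurrences.
Zfp352: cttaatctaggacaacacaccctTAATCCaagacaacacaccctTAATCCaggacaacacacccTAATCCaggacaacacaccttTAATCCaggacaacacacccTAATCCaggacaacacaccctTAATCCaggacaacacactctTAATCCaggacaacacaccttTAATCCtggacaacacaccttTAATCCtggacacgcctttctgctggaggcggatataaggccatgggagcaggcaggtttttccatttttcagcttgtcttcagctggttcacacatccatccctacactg
Tdpoz1, chr3:93676234-93676533 on the minus strand, held 1 copy of TAATCC and 1 CCAAT on the opposite strand, read here as ATTGG, and is shown beside it with both in capitals.
Tdpoz1: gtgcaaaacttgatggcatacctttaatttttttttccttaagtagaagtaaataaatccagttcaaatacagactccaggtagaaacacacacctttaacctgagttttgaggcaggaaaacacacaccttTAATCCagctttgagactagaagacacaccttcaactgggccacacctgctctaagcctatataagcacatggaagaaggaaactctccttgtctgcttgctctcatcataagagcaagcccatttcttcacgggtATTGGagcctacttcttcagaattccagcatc
The window of Usp17lc held 1 TATAAA and 4 CCAAT and that of Tdpoz4 none of the 3 motifs. The gene model of Tdpoz4 begins with its coding sequence, so that its window need not hold the promoter. The marked matches did not overlap one another. These matches describe letters in the windows and no binding was measured.

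Other genes of the 2-cell program were described from a list of 19, of which 17 were in the table and 12 were tested. Of these, 11 were higher, 9 of them by adjusted p, and 0 were lower, with a median log2 fold change of 3.31, beside 4.73% of all genes higher and 4.43% by adjusted p. These numbers are a description only, since 9 of the 12 reached the minimum of the filter in no WT library. The exception was Snai1, encoding a transcriptional repressor, with 82 and 90 counts in WT against 56 and 48 in G3 Terc-/- libraries and a log2 fold change of -0.60. The smallest p-values were those of Gm20767, given above, Tmem92, encoding a membrane protein (5 and 6 against 66 and 57 counts, log2 fold change 3.58), Arg2, encoding a mitochondrial arginase (5 and 6 against 67 and 55, 3.56), Chit1, encoding a chitinase (7 and 8 against 77 and 42, 3.08), and Gm21319, a further Eif1a-related gene (3 and 11 against 54 and 66, 3.21). Gm4340 and E330021D16Rik had no count in any library.

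The 5 Zscan4 genes summed to 4.26 and 4.51 CPM in WT and to 43.9 and 43.4 CPM in G3 Terc-/- libraries. The 33 genes whose symbols begin with Prame, here called Pramel genes, summed to 74.3 and 80.8 against 86.1 and 86.9 CPM. Of the Pramel genes 8 were tested and 25 were not. Among the 8, 5 were higher and 1 lower, beside 4.73% of all genes tested higher and 3.13% lower. The median log2 fold change was 2.70, although 3 of the 8 reached the minimum of the filter in no WT library. The MERVL-int repeat had 667 and 649 in WT and 3672 and 3466 CPM of TE counts, and its LTR, MT2_Mm, had 534 and 521 against 1419 and 1417, with no test made here.

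The genes most like Gm5662, the listed gene with the highest CPM, were sought among 12176 genes by the Euclidean distance of centred log2 CPM over the 4 libraries. The 5 nearest were Zscan4d (0.434), Zscan4a (0.531), Dio3 (0.723), Vax2os (0.840) and Gm5039 (0.863). Zscan4d had 18 and 22 counts in WT against 243 and 234 in G3 Terc-/- libraries, against 12 and 22 and 235 and 234 for Gm5662. Dio3, encoding a deiodinase that inactivates thyroid hormone, had 28 and 55 against 378 and 294 counts.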

How the data were processed

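The authors aligned paired-end reads of 150 bases to mm10 with STAR, and their processing notes also list Trim Galore and featureCounts, without versions or roles. They deposited raw read counts per gene and per transposable element (TE) copy, with no normalization. Strand, annotation and the handling of reads with several matches are not given in the sources used here. Genes carry NCBI identifiers, and 24061 of 24116 were matched to symbols of GRCm38.p6. The paper calls the 2 libraries of a line biological replicates, and p-values measure the spread between them.

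Counts were tested with edgeR 4.0.16 in R 4.3.3, using TMM, filterByExpr (10 counts, here 0.455 CPM) and glmQLFTest, with genotype as the only term, and p-values were adjusted over all genes. The Cufflinks step of the paper cannot be run on counts. The cutoffs of the paper were kept. Standard errors were derived from the log2 fold change and the F statistic. Ratios of summed counts have exact 95% intervals, and CPM was scaled by TMM library sizes. Family sums replaced the rows of a family by 1 row. Coding identities came from Biopython 1.88 alignments. The fit was tested on simulated counts. Replicates differed beyond sampling noise (chi-square per gene 2.23 for WT, 3.21 for G3 Terc-/-). The text names all listed genes, their paralogs in the table, up to 5 genes of the other 2-cell list by p, Terc and the 5 genes nearest to the member with the highest CPM. The genes, lists and tests were chosen with earlier results of these data known. Alternatives were DESeq2 1.42.0, its size factors, other filters, a replicate block, adjusted p-values, other sums and each library left out. Duxf3, Dux and the paralogs outside the table were not analysed here.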

Additional observations from a re-analysis of the deposited data

How the results depend on the processing

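Across all alternatives run (DESeq2, its size factors, no filter, a filter of 1 CPM in 2 libraries, adjusted p-values, the replicate block and each library left out), 7 of the listed genes were higher and 0 lower, except without a filter, where 9 of the 10 were higher. Every alternative fold change kept its direction and its side of the cutoffs. The 131 alternative values also hold counts of genes called, for which 9 in place of 7 was taken as the same. The fits with DESeq2, its size factors, the block or a library left out used the genes that passed the filter on all 4 libraries. Tcstv1, Tcstv3, Zfp352 and Gm2022 passed it through the G3 Terc-/- libraries alone, so that the counts of genes called are a description only. The log2 fold change ranged from 3.46 to 3.75 for Tcstv1, from 3.72 to 4.29 for Tcstv3, from 2.55 to 2.77 for Usp17le and from 3.55 to 4.39 for Gm5662. It ranged from 3.88 to 7.88 for Zfp352, from 1.75 to 2.94 for Usp17lc and from 1.84 to 3.16 for Gm2022, with both ends set by leaving out 1 or the other WT library. Family sums ranged from 3.52 to 3.85 (Eif1a-like), 3.58 to 3.98 (Tcstv), 2.90 to 4.11 (Tdpoz) and 2.51 to 2.97 (Usp17l), and a sum with Gm20767, Gm21761 and Gm21319 added, chosen after seeing the data, gave 3.58 for Tcstv and 3.62 for Eif1a-like. With 1 library left in a group, that library is assumed to vary like the other group.

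With the replicate number as a block, the same-numbered libraries sharing only a number (correlation of their deviations 0.0577), 7 listed genes were higher and 0 lower, and 700 genes were higher overall in place of 704. Low counts limit Tdpoz1, Tdpoz3 and Tdpoz4, with 6 to 17 counts over the 4 libraries, and shared sequence limits the split of counts within the Tdpoz, Usp17l and Eif1a-like families.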
